A study of Homo sapiens with 7 samples.

Results

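The SLC25 family of mitochondrial carriers was described in HepG2, an established human liver cancer cell line, through the RNA-Seq level of each gene and the histone marks on the nucleosomes at both ends of its locus. A row of the expression table was a member if it lay on an autosome and its gene column, split at commas, held a symbol made of SLC25A and digits, and 41 of 21042 named autosomal rows did. The measured set holds 7 samples of HepG2 cells, and their titles name no treatment. They are RNA-Seq, native MNase-Seq for nucleosome positions, and a ChIP-Seq library for each of H3K4me3, H3K27ac, H3K9ac, H3K9me3 and H3K27me3. Each assay has 1 sample, so no replicate check exists, no group of samples is compared and no P value was computed. The 2 FPKM columns of the RNA-Seq sample (fragments per kilobase of transcript, scaled to sequencing depth) are called run 1 and run 2 here. These names are not the submitters' own, and whether the columns are repeat runs or separate cultures is not stated.

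Carriers of this family sit mostly in the inner mitochondrial membrane and exchange metabolites, nucleotides, cofactors and ions between the matrix and the cytosol. In liver they feed citrate to fatty acid synthesis, aspartate and ornithine to the urea cycle, acylcarnitine to fatty acid oxidation and phosphate and ADP to ATP synthesis. H3K4me3, H3K9ac and H3K27ac are known from the starts of active genes, whereas H3K27me3 and H3K9me3 are known from repressed chromatin. A nucleosome with H3K4me3, H3K9ac and H3K27ac at the same position is called trivalent, or "T", here.

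Not every locus of the family could be read at the same resolution. Of the 41 rows, 25 have coordinates of their own and 1 symbol. The other 16 share their coordinates with another row (15 rows) or hold several symbols (3 rows, of which 2 also share coordinates). SLC25A10, for example, stands in 1 row with HGS and MRPL12, and SLC25A44 lies in a merged locus with PMF1 and BGLAP. For these 16 the start of the carrier itself may lie inside the locus and the FPKM may be that of the merged locus. Positions are given as listed in the table, in hg19, and the start of a locus was taken from its inferred strand.

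The promoters of 5 carriers are shown first because they span the range met in the results, and they were chosen after the values were seen. SLC25A36, a pyrimidine nucleotide carrier, had 6 "T" downstream of its start, and SLC25A4, the adenine nucleotide translocase of heart and muscle, had 2 "T" upstream. SLC25A31, the adenine nucleotide translocase of the testis, SLC25A47, a liver-enriched carrier, and SLC25A18, a glutamate carrier, had no marked nucleosome within 2 kb of their start. Each run of 300 bases reaches from 250 bases before to 50 bases after the RefSeq start in GRCh38.p14, with CpG dinucleotides in capitals. Since the marks are in hg19, promoter and mark positions were not laid over each other.
SLC25A36 (chr3:140941586-140941885, plus strand): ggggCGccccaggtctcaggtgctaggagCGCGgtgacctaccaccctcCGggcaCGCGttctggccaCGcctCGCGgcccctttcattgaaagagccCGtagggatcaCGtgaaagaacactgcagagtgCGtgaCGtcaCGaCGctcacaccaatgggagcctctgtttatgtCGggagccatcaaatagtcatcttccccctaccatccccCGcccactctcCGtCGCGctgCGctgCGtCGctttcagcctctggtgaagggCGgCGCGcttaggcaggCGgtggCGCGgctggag
SLC25A4 (chr4:185143016-185143315, plus strand): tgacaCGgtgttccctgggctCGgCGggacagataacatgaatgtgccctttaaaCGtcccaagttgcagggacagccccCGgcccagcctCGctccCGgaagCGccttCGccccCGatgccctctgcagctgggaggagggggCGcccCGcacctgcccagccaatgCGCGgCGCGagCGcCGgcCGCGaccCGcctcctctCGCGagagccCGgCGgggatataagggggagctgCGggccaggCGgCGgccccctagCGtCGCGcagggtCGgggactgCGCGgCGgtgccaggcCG
SLC25A31 (chr4:127730150-127730449, plus strand): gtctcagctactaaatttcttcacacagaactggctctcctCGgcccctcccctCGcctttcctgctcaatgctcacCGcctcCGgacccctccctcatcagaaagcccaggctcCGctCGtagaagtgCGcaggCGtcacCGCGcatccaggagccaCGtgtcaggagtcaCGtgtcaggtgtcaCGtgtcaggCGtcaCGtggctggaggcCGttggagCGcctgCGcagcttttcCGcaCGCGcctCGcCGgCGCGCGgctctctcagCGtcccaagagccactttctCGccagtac
SLC25A47 (chr14:100323089-100323388, plus strand): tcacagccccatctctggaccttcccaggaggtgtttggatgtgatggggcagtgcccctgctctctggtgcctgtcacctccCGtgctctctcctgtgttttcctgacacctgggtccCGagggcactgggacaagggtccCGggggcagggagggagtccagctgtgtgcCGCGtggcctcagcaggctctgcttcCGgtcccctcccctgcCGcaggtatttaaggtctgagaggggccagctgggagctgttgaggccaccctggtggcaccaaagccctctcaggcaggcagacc
SLC25A18 (chr22:17563248-17563547, plus strand): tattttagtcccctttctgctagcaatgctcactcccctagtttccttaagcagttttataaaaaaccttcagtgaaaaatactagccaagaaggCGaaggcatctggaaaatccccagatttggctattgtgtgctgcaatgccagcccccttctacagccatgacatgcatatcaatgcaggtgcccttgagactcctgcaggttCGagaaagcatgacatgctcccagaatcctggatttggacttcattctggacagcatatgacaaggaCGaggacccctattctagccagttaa
The first 3 hold 29, 36 and 28 CpG, whereas SLC25A47 holds 7 and SLC25A18 holds 3. SLC25A31, with no marked nucleosome near its start, thus had about as many CpG as SLC25A36.

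RNA of most carriers was present. At a mean FPKM of at least 1 there were 34 of 41 rows (82.9%), beside 52.2% of all named autosomal rows. The median over the 41 rows was 11.3 FPKM, with quartiles of 2.25 and 19.2, beside a median of 1.44 over all named rows. Among rows at an FPKM of at least 1 the medians were 12.9 for the carriers and 12.02 for all named rows, values that lay close together. At an FPKM of at least 100 there were 4 carrier rows (9.76%, beside 3.35% of all named rows), and 39 of 41 reached 0.1 (95.1%, beside 64.5%). All 4 share coordinates or hold several symbols, so their FPKM may be that of a merged locus. The highest of the 25 rows with own coordinates and 1 symbol was at 72.9. The runs differed by at most 1.2-fold in 38 of the 41 rows, and in 0 rows with an FPKM of at least 1 did they differ by over 2-fold.

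**Figure D1:**
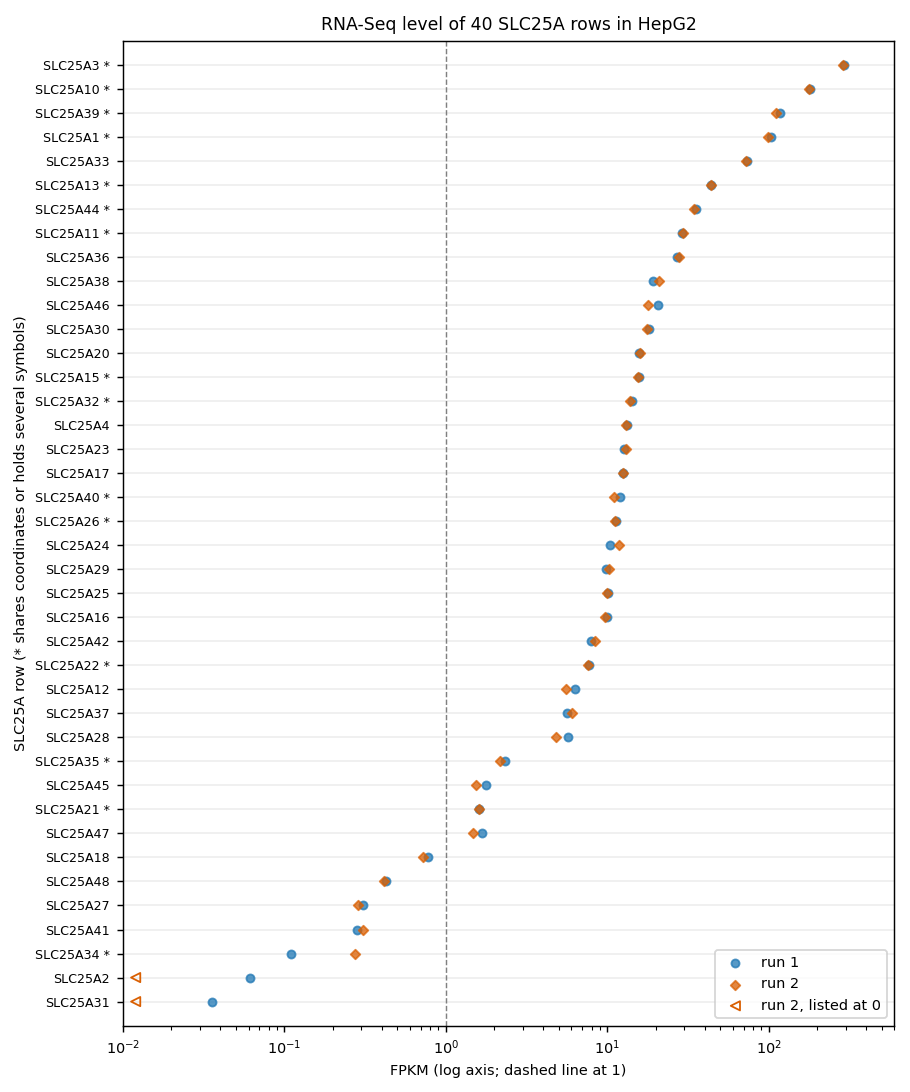
FPKM of each of 40 SLC25A rows on a log axis, with run 1 as circles, run 2 as diamonds and values listed at 0 as open triangles at the left edge; a star marks the 15 of them that share coordinates or hold several symbols. The levels run from 291 for SLC25A3 down to the lowest 7 rows, which lie left of the dashed line at 1.

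The highest levels belonged to rows that hold carriers of phosphate, dicarboxylates, glutathione and citrate. SLC25A3, the phosphate carrier that supplies ATP synthase, stood at 293 FPKM in run 1 and 289 in run 2. SLC25A10, the dicarboxylate carrier that exchanges malate and succinate for phosphate, stood at 181 and 177, in a row that it shares with 2 other symbols. SLC25A39, needed for the uptake of glutathione into mitochondria, stood at 118 and 111. All 3 of these rows share their coordinates with another row. SLC25A1, the citrate carrier that exports citrate for fatty acid synthesis, stood at 104 and 98.8, in a row that also holds CLTCL1. SLC25A33, a pyrimidine nucleotide carrier, stood at 73.5 and 72.2 and was the highest of the rows with their own coordinates and 1 symbol.

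Carriers of the same substrate stood far apart in several pairs. For aspartate and glutamate, SLC25A13 (citrin, the form known from liver) was at 43.9 and 43.8 FPKM and SLC25A12 (aralar, the form known from brain and muscle) at 6.32 and 5.59. SLC25A13 has its coordinates in common with MIR591, a microRNA gene within it. For ornithine, SLC25A15, which serves the urea cycle, was at 15.7 and 15.5 and SLC25A2 at 0.0611 in run 1 and listed at 0 in run 2. SLC25A29, a carrier of basic amino acids, was at 9.85 and 10.2. For glutamate, SLC25A22 was at 7.72 and 7.57 and SLC25A18 at 0.776 and 0.720. In these pairs the runs of one gene never overlapped those of the other.

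Among adenine nucleotide translocases, SLC25A4 was at 13.2 and 12.97 FPKM and SLC25A31 at 0.0354 in run 1 and listed at 0 in run 2. SLC25A5, the form of dividing cells, lies on X and is no member by the rule, and it stood at 349 and 338 FPKM, above every member. The SLC25A5 row also shares coordinates or holds several symbols, so its FPKM may be that of a merged locus. SLC25A6 is listed at 0 both in its row on X and in its row on Y. This does not show that its RNA was absent, and how reads that match both rows were counted was not tested. Reads of these close paralogues can be split between them, so the levels of this set are uncertain.

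The calcium-regulated ATP-Mg/phosphate carriers SLC25A23, SLC25A24 and SLC25A25 lay close together, at 12.8 and 13.03, 10.5 and 11.8, and 10.1 and 9.96 FPKM. SLC25A41, their short relative without the calcium-binding domain, stood at 0.281 and 0.306. In the iron pair, SLC25A37 (mitoferrin of red cell precursors) was at 5.62 and 6.05, and SLC25A28 (the mitoferrin of other tissues) at 5.71 and 4.79. The ranges of the mitoferrins overlapped, so their order is not resolved. In the glutathione pair SLC25A40 stood at 11.98 and 11.1, against 118 and 111 for SLC25A39.

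All 8 carriers of cofactors and nucleotides were at an FPKM of at least 1, beside 82.9% of all carrier rows and 52.2% of all named rows, with a median of 12.7 and a range from 8.14 to 72.9. SLC25A36 stood at 27.2 and 27.9, below its paralogue SLC25A33. SLC25A32, which imports folate or FAD, was at 14.2 and 13.9. SLC25A17, the peroxisomal carrier of coenzyme A and other cofactors, was at 12.5 and 12.6, and SLC25A26, the S-adenosylmethionine carrier, at 11.4 and 11.2. For the coenzyme A pair, SLC25A16 stood at 9.90 and 9.61 and SLC25A42 at 7.91 and 8.37. Between SLC25A15 and SLC25A26 the ordered means fell from 15.6 to 11.3 FPKM over 8 rows, in small steps that 1 sample cannot rank.

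The remaining carriers of organic acids, amino acids and acylcarnitine above an FPKM of 1 were spread widely. SLC25A44, a carrier of branched-chain amino acids, stood at 35.4 and 34.5 in its merged locus, and SLC25A11, the malate and oxoglutarate carrier, at 29.03 and 29.5. SLC25A38, which brings glycine to haem synthesis, stood at 19.3 and 20.8, and SLC25A21, the oxodicarboxylate carrier, at 1.60 and 1.61. SLC25A20, the carnitine and acylcarnitine carrier, was at 15.8 and 15.9.

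In the uncoupling-like set, SLC25A30 was at 18.1 and 17.5 FPKM and SLC25A27, known from brain, at 0.308 and 0.288. SLC25A14, on X and so outside the rule, was at 4.85 and 5.38. The 6 little-characterised carriers had the lowest median of the larger sets, 1.61 FPKM, beside 1.44 over all named rows. At 1 or more there were 4 of 6, beside 82.9% of all carrier rows and 52.2% of all named rows. SLC25A46, which acts at the outer membrane in mitochondrial shape, led the 6 carriers at 20.5 and 17.8. SLC25A35 followed at 2.34 and 2.16, SLC25A45 at 1.78 and 1.53 and SLC25A47 at 1.66 and 1.48. SLC25A48 stood at 0.424 and 0.412, and SLC25A34, the paralogue of SLC25A35, at 0.110 and 0.274.

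Some relatives do not carry a member symbol in the table. SLC25A43, on X, stood at 7.54 and 8.15 FPKM. SLC25A51, a NAD carrier listed by its older symbol MCART1, was at 9.73 and 10.3 with 3 "T" near an end, and its near copy SLC25A52, listed as MCART2, was at 0.175 and 0.0494 with 0 "T". SLC25A53, listed as MCART6 on X, was at 1.12 and 1.18. Of 5 family members with other names, 3 were at an FPKM of at least 1, beside 52.2% of all named rows. They were UCP2 at 7.88 and 8.28 and the outer-membrane proteins MTCH1 at 66.4 and 66.5 and MTCH2 at 85.6 and 86.8. UCP1, the uncoupling protein of brown fat, was at 0.0448 and 0.156, and UCP3, that of muscle, at 0.0350 and 0.0331.

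Other genes of the same routes were read for context. Among 17 autosomal rows of other mitochondrial membrane transporters, 17 were at an FPKM of at least 1, beside 52.2% of all named rows, with a median of 25.9. A "T" was near an end in 16, beside 77.7% of all named rows at 1 or more. VDAC1, the main outer-membrane channel, stood at 136 and 137. Among 20 autosomal rows of enzymes that use what the carriers move, 20 were at 1 or more, beside the same 52.2%, with a median of 52.4. A "T" was near an end in 18, beside the same 77.7%. OTC, a urea cycle enzyme of the same list, lies on X and is not among the 20. It stood under 1, at 0.563 and 0.569. ACLY, which cleaves the citrate that SLC25A1 exports, was at 93.1 and 89.1, and CPS1, the first enzyme of the urea cycle, at 13.3 and 12.9. The median number of "T" near the ends was 4 in each list, 2 over the 34 carriers at an FPKM of at least 1 and 3 over all named rows at that level, and 1 over all 41 carrier rows. As a check of the cell type, 9 of 10 rows of hepatocyte markers were at an FPKM of at least 1, with ALB at 9933 and 10088. Of markers of other cells, 2 of 8 rows were, beside 52.2% of all named rows. They were ACTA1 of muscle at a mean of 3.71 and COL1A2 of fibroblasts at 1.16. PTPRC and CD3E of blood cells were listed at 0.

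The active marks were counted within 2 kb of either locus end. H3K4me3 was there in 35 of 41 carrier rows (85.4%, beside 59.7% of all named rows), H3K27ac in 32 (78%, beside 52.3%) and H3K9ac in 31 (75.6%, beside 57.2%). A trivalent nucleosome was there in 28 rows (68.3%, beside 49%), and at least 3 were there in 14 (34.1%, beside 33.8%). No marked position was found in 4 rows (9.76%, beside 29.7%). Among rows at an FPKM of at least 1 the shares of single marks and of a "T" were closer to the background: H3K4me3 in 31 of 34 (91.2%, beside 84.8%), H3K9ac in 29 (85.3%, beside 84%), H3K27ac in 30 (88.2%, beside 81.1%), and a "T" in 26 (76.5%, beside 77.7%). At least 3 "T" were near 14 of the 34 (41.2%, beside 55.1%), a share farther from its background than that over all 41 rows. No marked position was found near 2 of the 34, SLC25A32 and SLC25A40 (5.88%, beside 11.7%).

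**Figure D2:**
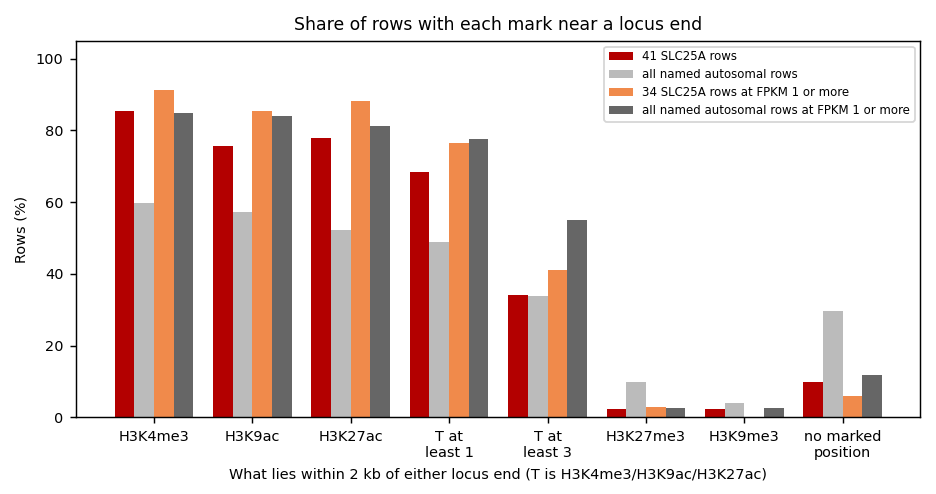
Share of rows in percent with each mark, with at least 1 or at least 3 trivalent nucleosomes, or with no marked position within 2 kb of a locus end, for all SLC25A rows, all named autosomal rows and the rows of each at an FPKM of 1 or more. A trivalent nucleosome lies near 76.5% of expressed carrier rows and 77.7% of all expressed rows, and at least 3 lie near 41.2% and 55.1%.

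The repressive marks were rare near the carriers. H3K27me3 lay near an end of 1 row (2.44%, beside 9.79%), that of SLC25A21. Its marked position, chr14:37126957-37127096, is at the far end of a locus shared with PAX9, a developmental transcription factor gene, while 4 "T" lay 1147 to 1542 bp downstream of the start. H3K9me3 also lay near 1 row (2.44%, beside 3.93%), the short SLC25A2 locus on chr5, where the position chr5:140683487-140683626 was centred 56 bp downstream of the start. SLC25A2 has no other mark within 2 kb. Among the 34 rows at an FPKM of at least 1, H3K27me3 was near 1 (2.94%, beside 2.77%) and H3K9me3 near 0 (beside 2.54%).

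Within 2 kb of both ends of the 41 rows there were 1620 nucleosome positions, 26 to 47 per row, and 212 of them were marked (13.1%, beside 9.92% near all named rows). The trivalent combination was the most frequent, at 82 positions or 38.7% of the marked ones, beside 44.01% near all named rows and 49.5% near rows at an FPKM of at least 1. H3K4me3 alone followed with 46 positions (21.7%, beside 20.5%), and H3K4me3/H3K9ac with 43 (20.3%, beside 15.3%). H3K27ac alone made up 18 positions (8.49%, beside 5.26%). The trivalent share near carriers was thus below, and the H3K4me3/H3K9ac share above, the share near all named rows, with no replicate check.

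Where the start could be placed, the marks lay around it. Among the 19 rows with own coordinates, 1 symbol and an FPKM of at least 1, 18 had a "T" within 2 kb of the start (94.7%, beside 85.2% of 6143 such named rows), and 8 had at least 3 (42.1%, beside 57.5%). H3K4me3, H3K9ac and H3K27ac were each near the start in 18 of the 19, beside 92.4%, 91.5% and 87.2%. A "T" near the other end was found in 1 of 19 (5.26%, beside 6.48%). Of the "T" near these starts, 39 lay downstream and 8 upstream, so 83% were downstream, beside 76.4% over all such rows. More lay downstream than upstream in 14 rows (73.7%, beside 67.3%) and more lay upstream in 3 rows (15.8%, beside 9.86%), those of SLC25A4, SLC25A28 and SLC25A29.

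**Figure D3:**
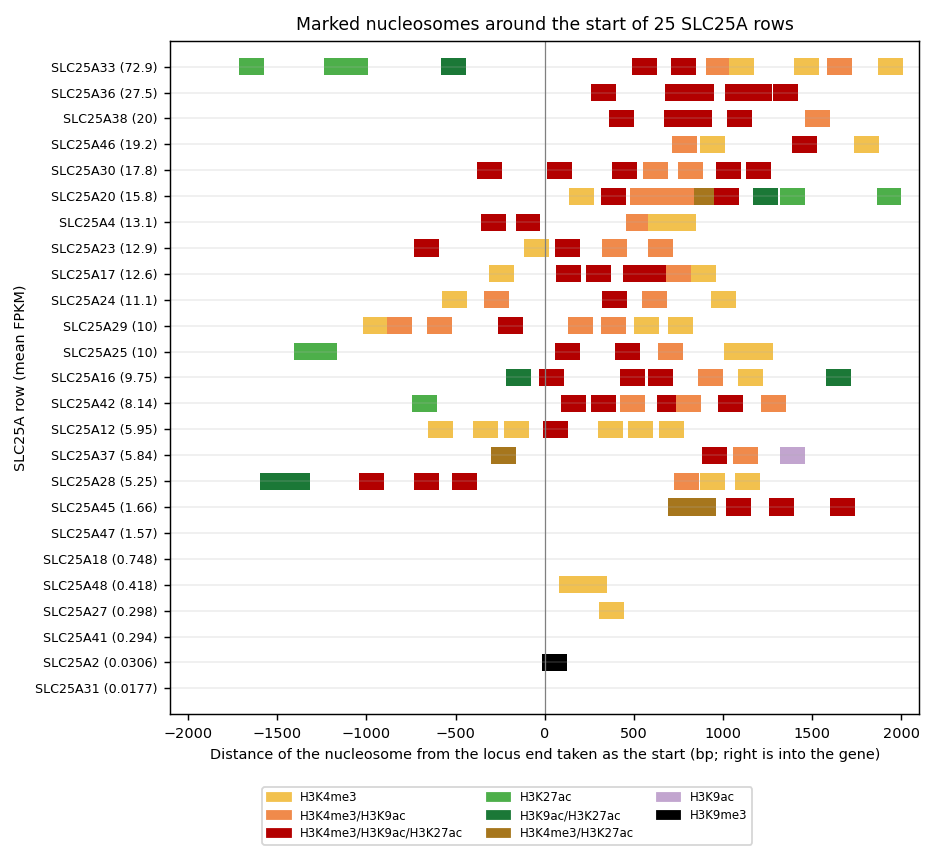
Marked nucleosomes around the start of the 25 SLC25A rows with own coordinates and 1 symbol, ordered by mean FPKM (in brackets), with the distance from the start in bp on the horizontal axis, right being into the gene, and colour giving the combination of marks. Trivalent nucleosomes (dark red) stand in 18 rows, all at an FPKM of at least 1, and in none of the 7 lowest rows.

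The strings of marks differed in make-up between carriers. SLC25A36 had 6 marked nucleosomes near its start, all trivalent, between 331 and 1351 bp downstream, and SLC25A38 had 4 "T" between 430 and 1092 bp. SLC25A30 had 5 "T" from 310 bp upstream to 1201 bp downstream, and SLC25A17 had 4 from 131 to 638 bp. SLC25A33, with the highest level of these rows, had only 2 "T", at 557 and 777 bp, with 3 nucleosomes of H3K27ac alone between 1643 and 1063 bp upstream. SLC25A46 had 1 "T", at 1456 bp, among 4 marked nucleosomes.

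Trivalent nucleosomes lay mainly upstream in 3 carriers. SLC25A4 had "T" at 287 and 94 bp upstream, and downstream only H3K4me3/H3K9ac at 523 bp and H3K4me3 alone at 648 and 780 bp. In SLC25A28 all 3 "T" lay upstream, from 973 to 450 bp, and SLC25A29 had 1 at 192 bp upstream. SLC25A29 also had 4 nucleosomes of H3K27ac alone around its other end. Unlike SLC25A28, SLC25A37, the other mitoferrin, had 1 "T", at 952 bp downstream.

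A single trivalent nucleosome in a run of H3K4me3 was the pattern of SLC25A12. H3K4me3 alone stood at 586, 331 and 156 bp upstream and at 369, 539 and 709 bp downstream, with the "T" at 59 bp. SLC25A24 likewise had 1 "T", at 393 bp, between H3K4me3/H3K9ac at 269 bp upstream and at 613 bp downstream. The ATP-Mg/phosphate carriers SLC25A23 and SLC25A25 had 2 each near the start. The start of SLC25A23 lies 906 bp from that of CRB3 (FPKM of 17.2) and the start of SLC25A25 lies 870 bp from that of NAIF1 (FPKM of 1.36), so upstream marks there are near 2 starts.

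SLC25A47, the exception among the 19, had no marked nucleosome near its start and its 3 marked positions, 1 of them trivalent, lay within the locus 1828 to 1323 bp before the other end. Its promoter, printed above, holds 7 CpG. SLC25A45, at a similar level, had 3 "T" between 1086 and 1671 bp downstream, and its RefSeq promoters hold 13 and 5 CpG.

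The 7 rows under an FPKM of 1 had 0 "T" near the start, beside 10% of all named rows under 1, and 2 had one near the other end (28.6% near either end, beside 17.6%). For SLC25A41 that "T" lay 1821 bp past the end, where the start of KHSRP, at an FPKM of 50.98, lies 769 bp past the end. For SLC25A34 it lay 252 bp before the end of a locus shared with TMEM82. H3K4me3 without acetylation stood near the start of SLC25A48, at 152 and 277 bp, and of SLC25A27, at 372 bp. The start of SLC25A27 lies 46 bp from the start of CYP39A1, which runs the other way at an FPKM of 0.174, so that nucleosome cannot be assigned to one of the genes. SLC25A18 and SLC25A31 had no marked position near an end. Within the whole SLC25A18 locus 7 positions were marked and 0 were trivalent, and within SLC25A31 1 was marked.

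All 8 rows at an FPKM of at least 1 without a trivalent nucleosome near an end were rows with shared coordinates or several symbols. They were SLC25A10, SLC25A11, SLC25A13, SLC25A22, SLC25A32, SLC25A39, SLC25A40 and SLC25A44. Among the 15 such rows at an FPKM of at least 1, 7 had a "T" near an end (46.7%, beside 67.1%), but all 15 had at least 1 within the whole locus and 2 kb beyond (100%, beside 97.4%). All 34 carriers at an FPKM of at least 1 had a "T" in the whole locus (100%, beside 94%).

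In SLC25A10, the merged locus held 11 "T" and neither end held any. SLC25A40, whose row shares coordinates with DBF4, held 7, all at chr7:87505084-87506561, in the middle of the locus. SLC25A32, shared with DCAF13, held 6, again away from both ends. SLC25A39 held 4 in chr17:42401382-42402123, and SLC25A44 held 4. In SLC25A13 there was 1, at chr7:95950832-95950971, downstream of the listed start at chr7:95953647 and just outside the 2 kb window. Of the 16 marked positions of SLC25A13, 12 carried H3K27ac alone. SLC25A11 and SLC25A22 held 2 each. The start of SLC25A11 as listed lies 92 bp from the start of ENO3, which had an FPKM of 17.8.

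**Figure D4:**
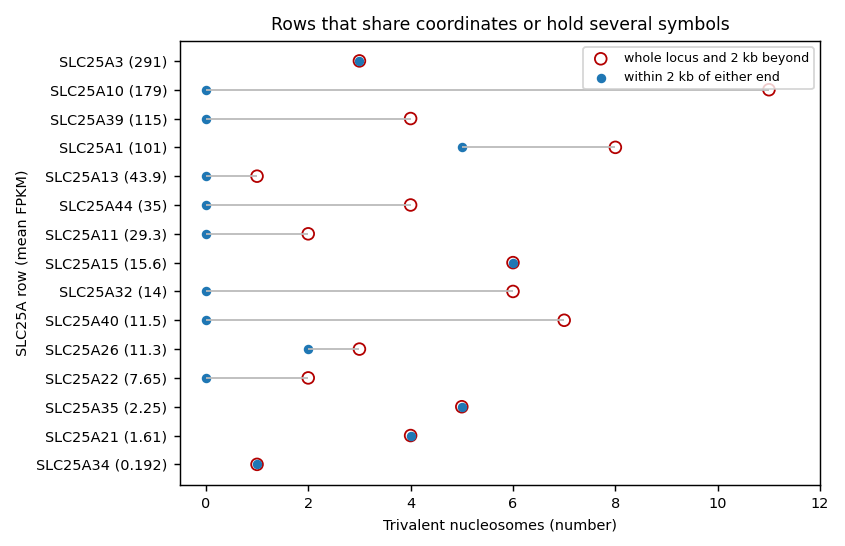
Number of trivalent nucleosomes within 2 kb of either end (filled blue) and within the whole locus and 2 kb beyond (open red) for 15 SLC25A rows that share coordinates or hold several symbols, ordered by mean FPKM in brackets. In 8 rows the filled point is at 0 while the open point is between 1 and 11.

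Among the rows described one by one, those with the most trivalent nucleosomes near their ends were SLC25A36 and SLC25A15 with 6 each, and SLC25A1, SLC25A30 and SLC25A35 with 5 each. SLC25A15 had 4 near the start and 2 near the other end, and SLC25A35 had 2 and 3, in a locus shared with RANGRF. In the row that holds SLC25A1 and CLTCL1, the 5 lay between 874 bp upstream and 496 bp downstream of the listed start. That is the start of the merged locus, chr22:19163058-19279287 on the minus strand, and may not be that of SLC25A1. The RefSeq promoter of SLC25A1 is at chr22:19178687-19178986 in GRCh38.p14, another build. The whole merged locus held 8 "T", the first at chr22:19165330, towards the end opposite the listed start. Which gene each "T" belongs to was not tested. Only SLC25A36 and SLC25A30 of these 5 rows have coordinates of their own and 1 symbol.

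The number of "T" near the ends ordered the carriers by level only in part. Over the 41 rows Spearman's rho with FPKM was 0.171, over the 25 rows with own coordinates and 1 symbol 0.662, and over the 34 rows at an FPKM of at least 1 it was -0.130. Over all named rows it was 0.584, and over all named rows at 1 or more 0.207. These are descriptions across genes that share the same libraries, and genes are not replicates. The median was 11.5 FPKM for the 13 carriers with 0 "T", 10.6 for the 14 with 1 to 2 and 12.7 for the 14 with 3 or more, beside 0.0299, 6.57 and 11.3 over all named rows. Among the 13 carriers with 0 "T", 8 were the expressed rows of merged or shared loci named above and 5 had an FPKM under 1.

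**Figure D5:**
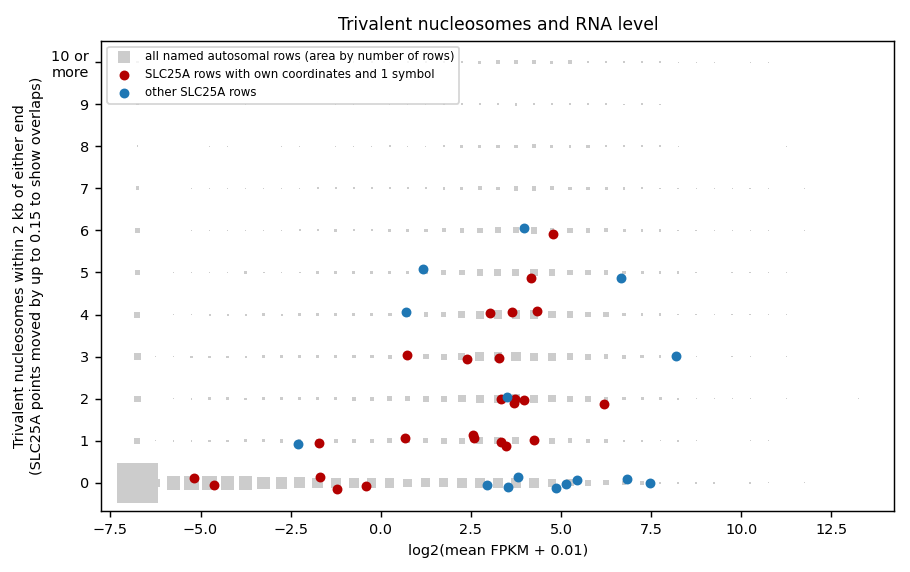
Number of trivalent nucleosomes within 2 kb of either end against log2(mean FPKM + 0.01), for 40 SLC25A rows, with those of own coordinates and 1 symbol in red and the others in blue, and all named autosomal rows as grey squares with area by number of rows. At 0 trivalent nucleosomes the red points lie at low levels and the blue points at the right are the 8 expressed rows of shared or merged loci.

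RefSeq promoters were given for 33 of the 41 symbols, 43 promoters in all, and for the other 8, among them SLC25A2, SLC25A16, SLC25A30, SLC25A32, SLC25A35, SLC25A37 and SLC25A41, none was used here. The median number of CpG in 300 bases was 25 over the carrier promoters and 14 over 33725 autosomal promoters. Searched on both strands, GGGCGG, the core of an Sp1 site, was in 26 of the 43 (60.5%, beside 45%), and CCAAT, the core of an NF-Y site, in 20 (46.5%, beside 34.4%). TATAAA was in 3 promoters (6.98%, beside 11.6%), which belong to SLC25A18 and SLC25A26. The palindromic NRF1 motif was in 0 of 43 (beside 1.23%) and the YY1 motif in 0 of 43 (beside 0.848%). These matches are descriptions of letters in this window.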

How the data were processed

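HepG2 cells were measured in 7 samples, 1 per assay. The authors called nucleosome positions from native MNase-Seq and histone peaks at those positions (enrichment of 4-fold or more, with P value and false discovery rate not above 0.01), and deposited them as hg19 coordinates. The study states the depth of its libraries, but the deposited lists hold no read counts, so the depth behind each position is not known from them. The authors deposited RNA-Seq values as FPKM in 2 columns of 1 table. The submitters' processing notes name BWA, Bowtie and TopHat2 2.1.0. The table's 5 columns of the authors' own comparison (fold change, test statistic, p-value, q-value and call) were not used.

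The mean of both FPKM columns was taken, and a row counted as expressed at 1 or more. All 312199 autosomal peaks matched the position whose identifier they carry. A position was near an end if its midpoint was within 2 kb. Strand was inferred from the order of locus numbers and was the same as in RefSeq for 11200 of 11276 comparable rows and for 33 of 33 members. Autosomal rows with a failed status (5) were left out. In counts and medians all 41 members enter, but 1 member is not reported here on its own and is not drawn. Values in full were set for the 5 highest and 5 lowest rows, the 5 with most trivalent nucleosomes, rows with repressive marks, rows at odds with their level, and paralogue sets. The members, lists and motifs were chosen with earlier results of these data known. Protein sequences were not used here. The counting was tested on simulated data, where 500 of 500 rows were recovered. Alternatives were other windows, ends, limits, runs and pseudocounts. Scripts ran in Python 3.11.15 with pandas 2.3.3, numpy 2.4.6, matplotlib 3.10.9 and scipy 1.17.1.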

Additional observations from a re-analysis of the deposited data

How the results depend on the processing

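Of 70 values under alternatives, 44 stayed within 1.5 times of the reported count or within the spread of the runs, 25 moved and 1 changed sign. With only the 25 rows with own coordinates and 1 symbol, 19 rows were at an FPKM of at least 1, the median was 9.75 FPKM, H3K4me3 was near an end in 22, H3K9ac in 20, H3K27ac in 20 and H3K27me3 in 0, 8 had at least 3 trivalent nucleosomes, 2 had no mark, and rho was 0.662; fewer rows enter by construction. Over 39 rows at 0.1 or more in both runs the median was 11.5 FPKM. At the start end alone H3K27me3 was near 0 rows, 7 rows had no mark and rho was 0.267. Within 1 kb, 7 rows had no mark and rho was 0.275. Within 5 kb, H3K9me3 was near 4 rows and rho was 0.460. Over the whole locus, an alternative chosen after seeing the data, as was rho on the 25 rows, H3K27me3 was in 2 rows, H3K9me3 in 13, no row was unmarked (0) and rho was 0.552. Over rows at an FPKM of at least 1 rho was -0.130. Pearson's r was 0.251 on log2(FPKM + 0.01) and 0.179 on log2(FPKM + 1), and rho was 0.173 in run 1 and 0.174 in run 2. The cause of these moves was not tested. For these counts the matching shares over all named rows are not given, so the counts are not read as results about the carriers. No paired analysis was possible because each assay has 1 sample. The peak lists hold no read counts, so the reads behind an unmarked position could not be checked.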
